A study of Mus musculus with 2 samples.

Results

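Non-hypertrophic chondrocyte nuclei were 233 of the 4481 nuclei of the series (5.20%, 95% Clopper-Pearson interval 4.57 to 5.89%). They were selected by their RNA. The cartilage genes Acan, Hapln1, Col9a1, Comp and Matn3 together made up at least 0.4% of a nucleus's non-mitochondrial UMIs (unique RNA molecules), with at least 5 UMIs from at least 3 of them, and Col10a1 and Mmp13, genes of hypertrophic chondrocytes, together stayed under 0.3%. The cartilage rule was met by 307 nuclei, of which the Col10a1 and Mmp13 limit removed 74. RNA and open chromatin (ATAC) were read from the same nuclei by 10x Multiome, in tdTomato+ cells sorted from mouse femurs on postnatal day 21 (genotype Prrx1-cre; R26R(tdTomato/+)). Every nucleus of the series carries this Cre, which marks cells descended from the limb mesenchyme, and the fluorescent reporter. The distal epiphyseal growth plates had been taken off and the proximal ends cut off before dissociation, and males and females of a litter were pooled. There was 1 RNA and 1 ATAC library, so nuclei are not replicates, no test between animals was possible and every interval covers counting error only.

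Chondrocytes build cartilage from type II collagen and its partner collagens IX and XI, and from aggrecan, a proteoglycan that holds water through its sulfated side chains. SOX9, with SOX5 and SOX6, drives these genes. In the growth plate, resting and proliferating cells pass through a prehypertrophic stage marked by Indian hedgehog and then become hypertrophic cells, which make type X collagen. The chondrocyte nuclei were set against 1064 other stromal nuclei that passed exactly 1 of 5 RNA gates: 131 hypertrophic, 12 tenocyte or synovial, 405 osteoblast, 444 reticular (marrow stromal cells with Cxcl12 and Lepr) and 72 mural. Another 216 nuclei passed a blood gate in spite of the sort for tdTomato and served as the background, since blood cells should lack cartilage RNA. Of the nuclei outside the selection, 2883 passed no gate and 85 passed more than 1, blood included. Those were in none of these classes.

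The chondrocyte nuclei held 562 to 68625 UMIs (median 2847) and 1077 to 441736 ATAC counts (median 47680), against medians of 2302 UMIs and 40596.5 ATAC counts in other stromal nuclei. Mitochondrial UMIs made up a median of 25.3% of their RNA, against 13.2% in other stromal nuclei, and only 28 of the 233 had at most 10%. The 5 genes of the rule made up 0.396% of the UMIs of free RNA, just below the limit of the rule, and 1.015% once the ribosomal RNA-like transcript Gm42418 was left out, which is above it. Gm42418 made up 22.4% of the UMIs of chondrocyte nuclei and 60.98% of free RNA. In blood nuclei the 5 genes made up 0.0607% of the UMIs. Of 221 nuclei with the blood gate, 2 passed the cartilage rule. Among the chondrocyte nuclei 39 also passed the gate of another cell type, most often osteoblast (21) or reticular (12).

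The selection itself reads as follows, as a description. All 5 genes were detected in 116 of the nuclei, 4 in 58 and 3 in 59. Comp, an oligomeric protein of cartilage and tendon, was the most abundant of them at 6493 CPM (counts per 1000000 non-mitochondrial UMIs), and in 55 nuclei it gave more UMIs than the other 4 together. Acan, which encodes aggrecan, stood at 3140 CPM over all chondrocyte nuclei and from 0 to 9567 CPM in single nuclei (median 1456). Hapln1, the link protein that ties aggrecan to hyaluronan, had 3050 CPM, the type IX collagen chain Col9a1 2918 CPM and Matn3, an adaptor protein of the matrix, 888 CPM. The 3 nuclei nearest to the limit on the inside had 0.4026, 0.4035 and 0.4052% and the 3 nearest outside 0.3997, 0.399 and 0.3989%. At the Col10a1 and Mmp13 limit, the highest nuclei kept had 0.299, 0.290 and 0.290%, and the lowest removed 0.305, 0.308 and 0.322%. In free RNA Col10a1 and Mmp13 together stood at 2526 CPM, also not far below their limit of 0.3%. By the share of the 5 genes, 118 nuclei lay between 0.4 and 0.8%, 58 between 0.8 and 1.5%, and 57 above 1.5%. These ranges also differed in depth, with medians of 1384.5, 4476 and 7788 UMIs and 39848.5, 47876.5 and 67897 ATAC counts from low to high. The part of depth in differences between the ranges was not tested.

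Genes outside the rule were read next, from the summed RNA of each group. Type II collagen, Col2a1, the main collagen of cartilage, ranged from 0 to 75900 CPM over single chondrocyte nuclei with a median of 5887. Summed, it stood at 19240 CPM (95% Poisson interval 19010 to 19480) in chondrocyte nuclei and 2856 CPM (2805 to 2908) in other stromal nuclei, a log2 ratio of 2.75. It followed the share of the 5 genes, with 4984, 10250 and 31620 CPM in the 3 ranges from low to high, against 12790 CPM in hypertrophic, 1012 in reticular, 743 in osteoblast and 751 in blood nuclei. Nuclei just outside the rule, at 0.2 to 0.4%, held 2222 CPM. After every nucleus was thinned to 500 UMIs, a Col2a1 UMI was found in 88.0% of chondrocyte nuclei (98.7% unthinned), 70.2% of hypertrophic nuclei (98.5%), 49.3% of reticular nuclei (85.4%) and 39.4% of blood nuclei (78.7%), whose median depth was 1767.5 UMIs. The share in blood nuclei was taken as the background, and the part of free RNA in it was not tested. Osteoblast nuclei lay near this background, with a Col2a1 UMI in 162 of 405 nuclei after thinning (369 unthinned). The 95% interval of their thinned share was 35.19 to 44.95%, against 32.79 to 46.21% in blood nuclei. Mural nuclei had a higher thinned share of 58.3% (91.7% unthinned), with an interval of 46.11 to 69.85%. Of the 12 tenocyte or synovial nuclei, 3 had a Col2a1 UMI after thinning (12 unthinned). The interval of that share, 5.49 to 57.2%, covers the share in blood nuclei. Col27a1, a fibrillar collagen of cartilage, set the groups further apart, with thinned shares of 45.1% in chondrocyte nuclei (62.7% unthinned), 12.98% in hypertrophic nuclei (47.3%) and 4.17% in blood nuclei (9.26%).

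Not every nucleus met its label to the same degree. The 12 that also passed the reticular gate had 2955 CPM of Col2a1 and 0 UMIs of Sox9 in 17936 (which allows up to 3). They had 1004 CPM of Lepr, the leptin receptor of marrow stromal cells. Lepr is a gene of that gate, so the choice sets its level in part. The 21 that also passed the osteoblast gate had 26900 CPM of Col2a1 and 510.5 CPM of Sox9, above the 18230 and 410 CPM of the 194 nuclei without another gate. By mitochondrial share, Col2a1 stood at 28100 CPM in nuclei of at most 10%, 27950 CPM at 10 to 20% and 10880 CPM above 20%, and Sox9 at 739.7, 445 and 327 CPM. The part of nucleus quality in these levels was not tested.

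**Figure D1:**
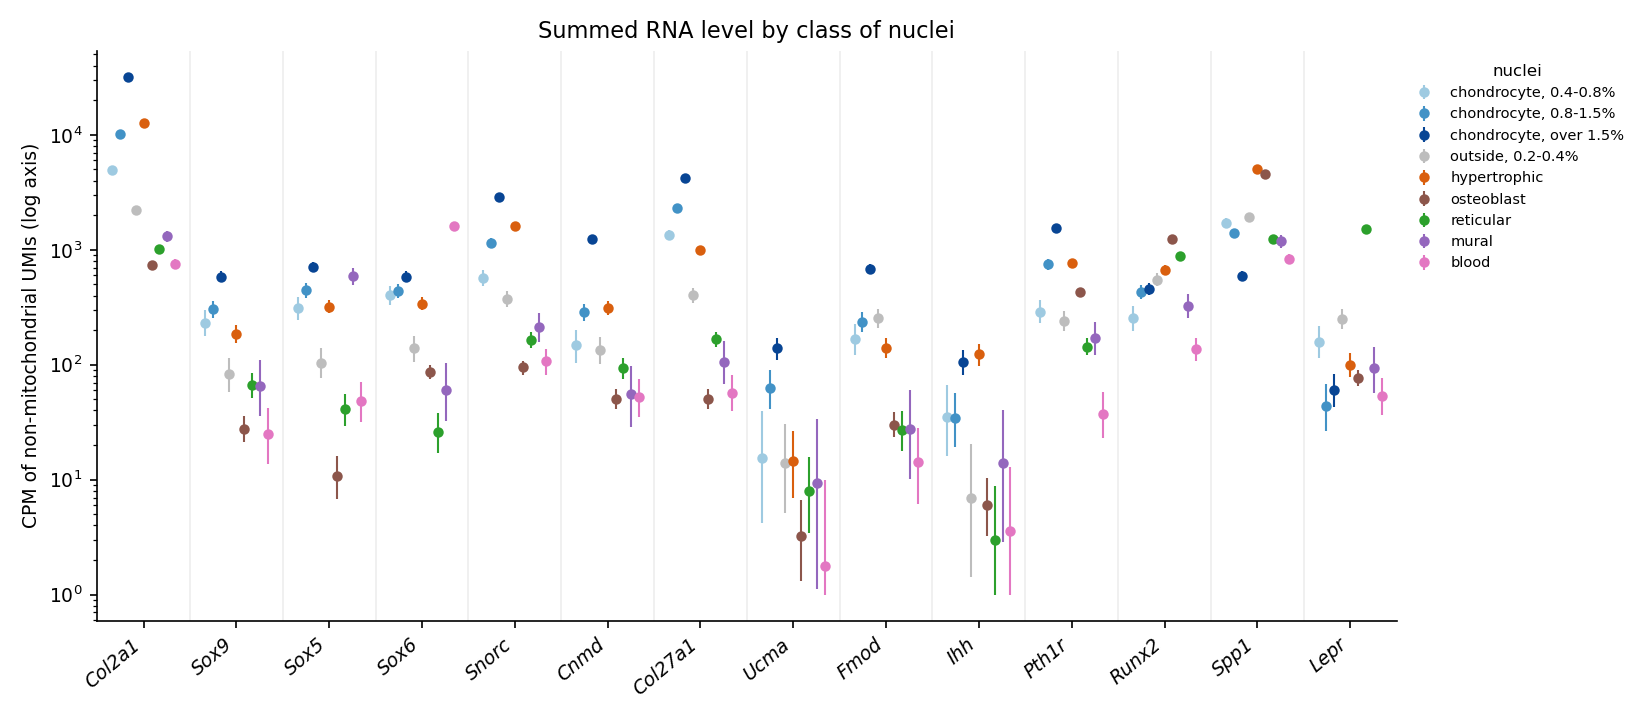
Summed RNA level of 14 genes in CPM on a log axis, for chondrocyte nuclei in 3 ranges of the 5-gene share (blue), for nuclei just outside the rule (grey) and for nuclei of other gates. Bars are 95% Poisson intervals, and values under 1 CPM are drawn at 1. Col2a1 stood at 4984, 10250 and 31620 CPM in the 3 ranges, against 12790 CPM in hypertrophic nuclei, while Spp1 was lowest in the highest range, at 592 CPM.

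A gene was counted as higher or lower when the summed levels differed at least 2-fold with at least 20 UMIs over both groups. Of 11251 genes, 1107 (9.84%) were higher and 1769 (15.7%) lower in chondrocyte nuclei than in other stromal nuclei. Among 17 cartilage collagens and matrix proteins with enough UMIs, 16 were higher and 0 lower, with a median log2 ratio of 2.59, against -0.11 over all genes. Col9a2 (2752 against 311 CPM) and Col9a3 (2502 against 352 CPM) encode chains of type IX collagen, which coats the type II fibrils. Ucma, a small secreted protein of resting chondrocytes, had 88.9 CPM in chondrocyte nuclei and 6.57 CPM in other stromal nuclei, with 116 UMIs in 46 nuclei. Snorc, a membrane proteoglycan of chondrocytes, and Cnmd, an inhibitor of vessel growth, followed at log2 ratios of 2.31 and 2.75. The exception was Col11a2, at 0.93.

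The side chains of aggrecan need their own enzymes, and 13 of 18 genes of glycosaminoglycan synthesis and sulfation were higher and 0 lower (median log2 ratio 1.57). Xylt1, which adds the first sugar of the chains, stood at 1305 CPM in chondrocyte nuclei and 149 CPM in other stromal nuclei. Papss2, which makes the sulfate donor, had 557 CPM against 74.7 CPM. The sulfate transporter Slc26a2 had 166 CPM against 32.4 CPM, and Csgalnact1, which starts chondroitin sulfate chains, 202 CPM against 37.0 CPM. The 5 genes within 2-fold were Chsy1, Chpf, Ext1, Papss1 and Xylt2, with log2 ratios between -0.87 and 0.42.

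Of the transcription factors, Sox9 had 422 CPM (387 to 458) in chondrocyte nuclei and 67.9 CPM (60.1 to 76.3) in other stromal nuclei, with a UMI in 110 of the 233 nuclei and up to 2045 CPM in a single nucleus. Its level was 232, 304 and 584 CPM from the lowest to the highest range, and 83.5 CPM just outside the rule. Sox5 (544 against 101 CPM) and Sox6 (500.5 against 115 CPM) were higher as well. Neither was confined to chondrocyte nuclei, since Sox5 stood at 589 CPM in mural nuclei and Sox6 at 1601 CPM in blood nuclei. Foxa3, a forkhead factor, had 93 UMIs in 51 chondrocyte nuclei and 32 UMIs in all other stromal nuclei (log2 ratio 3.18), and Foxa2 32 and 19. On the other side, Nfia and Nfib, factors of the nuclear factor I family, were lower (71.3 against 224.5 CPM and 51.4 against 206 CPM). In all, 10 of 16 listed factors were higher and 2 lower.

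Genes named for zones of cartilage were split. In the resting and superficial zone list 5 of 12 genes were higher and 1 lower. Nt5e, a surface enzyme that makes adenosine, had 448 CPM in chondrocyte nuclei and 72.2 CPM in other stromal nuclei, and Fmod, a collagen-binding proteoglycan that is also a tenocyte marker, 434 CPM and 84.2 CPM. Cilp and Prg4, also of the resting and superficial zone list, came from very few nuclei. Cilp had 18 UMIs in 3 nuclei, of which 15 lay in the 3 chondrocyte nuclei that also passed the tenocyte or synovial gate, and those 3 nuclei held 22 of the 72 UMIs of Gas1 and 24 of the 32 of Thbs4. Fmod rested on them less, with 26 of its 566 UMIs. Ihh, the prehypertrophic signal, was found in 33 nuclei and Ucma in 46, and 11 nuclei had both. Ihh stood at 68.2 CPM in chondrocyte nuclei, 123 CPM in hypertrophic nuclei and 25.3 CPM in other stromal nuclei together.

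The 12 chondrocyte nuclei with at least 2 Ihh UMIs were deeper, with a median of 10370.5 UMIs, against 2488 in the remaining 221. The deepest of the 12 held 58831 of their 203246 UMIs, so it weighs heavily in their summed levels. Among genes known from the stages before hypertrophy, Pth1r, the receptor for parathyroid hormone-related protein, had 2022 CPM against 844 CPM, Fgfr3, an FGF receptor that slows chondrocyte division, 305 CPM against 118 CPM, and Panx3, a channel protein, 812 CPM against 339 CPM. Ucma had 24.6 CPM against 101 CPM. The 12 nuclei also held more Col10a1 and Mmp13 RNA (1476 against 771 CPM) and more blood markers (389 against 132 CPM, 1 of 9 at 0). The 5 hypertrophic markers summed to 3356 against 2598 CPM, a sum that counts Col10a1, Mmp13 and Panx3 again. Its remaining genes, Ibsp and Spp1, were together lower in the 12 nuclei. The part of depth and of these markers in the differences was not tested.

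Of 11 listed prehypertrophic and hypertrophic genes with enough UMIs, 3 were higher (Panx3, Ihh and Pth1r) and 5 lower. Spp1, the bone matrix protein osteopontin, had 1088 CPM in chondrocyte nuclei and 3641 CPM in other stromal nuclei, and Ibsp 335 CPM and 934 CPM. Runx2, the master factor of osteoblasts, had 408 CPM in chondrocyte nuclei, 670 CPM in hypertrophic nuclei and 1241 CPM in osteoblast nuclei. The osteoblast, reticular and mural gates chose nuclei rich in Runx2, Ibsp, Lepr, Cxcl12 and Rgs5, so ratios of the genes in the gates are set in part by that choice. Lepr, for one, had a log2 ratio of -2.53 against these nuclei and -1.56 against all other nuclei.

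Col1a1, which encodes the main collagen of bone, was present in all 233 nuclei. It stood at 12940 CPM in chondrocyte nuclei, 39800 CPM in other stromal nuclei, 9922 CPM in blood nuclei and 45220 CPM in free RNA. Within the chondrocyte nuclei it was 19620, 20300 and 4918 CPM from the lowest to the highest range of the 5-gene share, so Col1a1 was lowest where Col2a1 was highest. A single nucleus gave 3605 of its 16884 UMIs. The 9 osteoblast markers together stood at 15660 CPM in chondrocyte nuclei and 47390 CPM in other stromal nuclei, and the 6 reticular markers at 458 and 2742 CPM, with none at 0. Col1a1 is among the osteoblast markers and made up most of both of their sums. Tenocyte or synovial markers were at 519 and 197 CPM. Fmod made up most of that sum in chondrocyte nuclei, and 1 of the 8 markers was higher and 1 lower (median log2 ratio -0.12). Periosteal markers were at 151 and 154 CPM, mural markers at 128 and 715 CPM (1 of 6 at 0 in chondrocyte nuclei), and blood markers at 172 and 113 CPM. Endothelial markers were near 0, at 7.66 and 6.57 CPM, with 2 of 5 at 0 in chondrocyte nuclei. Glia markers were at 69.0 and 27.7 CPM and muscle markers at 14.6 and 3.16 CPM, with 1 of 5 at 0 in chondrocyte nuclei in each list. The part of RNA from such cells in the levels above was not tested. Among the other collagens, Col1a2, Col22a1 and Col24a1 were lower (log2 ratios -1.84, -2.38 and -2.56), whereas Col6a3, a chain of the pericellular type VI collagen, was higher at 2492 CPM against 328 CPM.

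Signalling genes showed single members in both directions rather than whole pathways. In the FGF list 2 of 11 genes were higher and 4 lower. Fgf2 had 101 UMIs in 40 chondrocyte nuclei and 37 UMIs in other stromal nuclei (log2 ratio 3.09), and Fgfr3 147 CPM and 53.8 CPM. Fgfr1 and Fgfr2 were lower, at log2 ratios of -1.18 and -1.34, and the FGF target Spry1 had 9 UMIs, against 101. In the BMP and TGF-beta list 6 of 25 were higher and 7 lower. Bmp6 had 1140 CPM in chondrocyte nuclei and 345 CPM in other stromal nuclei, of which reticular nuclei held 755 CPM and osteoblast nuclei 27.4 CPM. Nog, a BMP antagonist, was higher (88 against 70 UMIs, log2 ratio 1.98) and Grem1, another antagonist, lower (8.43 against 47.7 CPM). In the hedgehog list 4 of 15 were higher, among them the co-receptor Cdon (74.3 against 18.5 CPM) and the ligand-binding inhibitor Hhip with 15 against 9 UMIs, and 5 lower. In the WNT list 5 of 20 were higher, such as Wnt11 (34.5 against 10.2 CPM), and 6 lower, such as the co-receptors Lrp4 and Lrp5.

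In the hypoxia and glycolysis list 9 of 14 genes were higher and 2 lower (median log2 ratio 1.47). The glucose transporter Slc2a1 had 104 CPM in chondrocyte nuclei and 22.4 CPM in other stromal nuclei, and the glycolytic enzyme Pgk1 238 CPM and 52.8 CPM. Hif1a was higher (log2 ratio 1.20), whereas Epas1, which encodes HIF-2 alpha, was lower at 46.0 CPM against 216 CPM, and stood at 654 CPM in mural and 550.5 CPM in reticular nuclei. In the list of ion channels and transporters 5 of 15 were higher and 2 lower (median 0.16). The calcium channel Trpv4 had 283 CPM in chondrocyte nuclei and 40.4 CPM in other stromal nuclei, and the pressure-gated Piezo1 548 CPM and 171 CPM, while Piezo2 had a log2 ratio of -0.76. Of 14 matrix proteases and inhibitors, 8 were lower and 2 higher. Mmp9 had 29.1 CPM in chondrocyte nuclei and 972 CPM in hypertrophic nuclei, and the inhibitor Timp3 was higher at 513 CPM against 122 CPM in other stromal nuclei. Among adhesion genes the laminin receptor chain Itga6 was higher (159 against 28.0 CPM), and the cadherins Cdh2 and Cdh11 were lower (both 135 CPM, against 763 and 561 CPM).

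Set against the 131 hypertrophic nuclei alone, the median log2 ratio was 0.88 for cartilage matrix, 0.65 for the transcription factors, 0.47 for glycosaminoglycan synthesis and 0.45 for hypoxia and glycolysis, each nearer to 0 than against all other stromal nuclei. It was 0.67 for the secretory pathway (0.41 against all other stromal nuclei) and -0.80 for proteases, with -0.09 over all genes. Sox9 had 422 CPM in chondrocyte nuclei and 186 CPM in hypertrophic nuclei, and Col27a1 2998 and 999 CPM. Ihh had a log2 ratio of -0.85.

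In the cell cycle list the levels were close, with 1 of 14 higher and 1 lower and a median log2 ratio of -0.04. Mki67, a marker of cycling cells, had 46.0 CPM in chondrocyte nuclei and 36.7 CPM in other stromal nuclei, and 39 chondrocyte nuclei had a UMI of Mki67 or Top2a. In the list of the secretory pathway and collagen processing, 4 of 17 genes were higher and 0 lower, 3 of them prolyl 4-hydroxylase subunits and the other the prolyl 3-hydroxylase P3h2 (431 against 93.9 CPM).

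Outside the lists, the genes of highest ratio with at least 50 UMIs in chondrocyte nuclei included Tgfbi, a secreted adhesion protein, with 470 UMIs in 85 chondrocyte nuclei and 94 UMIs in all other stromal nuclei (log2 ratio 3.97). Meltf, a membrane iron-binding protein, had 329 and 65 UMIs, and Syt8, a synaptotagmin, 273 and 42 UMIs. Syt8 stood at 132, 148 and 286 CPM over the 3 ranges, and at 53.7 CPM in hypertrophic and 1.79 CPM in blood nuclei. Krt16, an epithelial keratin, was sparse, with 58 UMIs in 23 nuclei. The unnamed transcript Gm50013 had 53 UMIs in 7 chondrocyte nuclei, 36 of them in 1, and 0 in other stromal nuclei, and 55 of the 115 UMIs of Rpgrip1 also lay in 1 nucleus.

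The chromatin of the same nuclei was not used to select them. Accessibility of a gene was the ATAC count in peaks over the gene body and 3 kb upstream, in CPM of all counts in peaks. Of 24236 genes with at least 20 counts, 8.21% were at least 2-fold more accessible in chondrocyte nuclei. Among 17 genes of cartilage matrix this held for 8, with a median log2 ratio of 0.94 against -0.03 over all genes. At Acan (chr7:79053483-79115099 in mm10, plus strand) 396 counts lay in 4 peaks, 32.3 CPM (29.2 to 35.7) in chondrocyte nuclei and 11.2 CPM (10.2 to 12.2) in other stromal nuclei. By range of the 5-gene share it was 19.1, 33.04 and 48.3 CPM, against 15.3 CPM just outside the rule, 23.5 in hypertrophic nuclei, 3.54 in reticular nuclei and 2.53 in blood nuclei. The interval of the lowest range, 15.4 to 23.5, overlapped that of the nuclei just outside, 12.4 to 18.6. At Sox5 the lowest range stood apart from the nuclei outside, with 210.0 (197 to 223) against 112.0 (104 to 121) CPM, and the highest range reached 472.

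The other genes of the rule, which used RNA only, were more accessible as well: Col9a1 had 1059 counts (log2 ratio 1.79), Hapln1 818 (1.54), Comp 788 (0.75) and Matn3 768 (0.75). Col2a1 had 67.5 CPM in chondrocyte nuclei and 35.2 CPM in other stromal nuclei. Lists that were higher in RNA were less set apart in chromatin, with 3 of 17 transcription factors at 2-fold (median log2 ratio 0.24), 2 of 19 genes of glycosaminoglycan synthesis (0.21) and 1 of 16 of hypoxia and glycolysis (0.05). Barx2, a homeobox factor, was among the 3, at 51.2 CPM in chondrocyte nuclei and 16.8 CPM in other stromal nuclei. Prehypertrophic and hypertrophic genes had a median of -0.22, and the reticular markers -0.64.

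Mia, a secreted cartilage protein, had 143 counts in chondrocyte nuclei and 70 in other stromal nuclei (log2 ratio 2.90), and Col9a3 367 and 221 counts (2.61). Sox9 itself was separated less in chromatin, at 44.5 against 29.8 CPM (log2 ratio 0.58), than in RNA (2.63), and reticular nuclei stood at 30.8 CPM. The same was seen at Foxa3 (0.06 in chromatin, 3.18 in RNA), whose only peak had 49.3 CPM in chondrocyte and 47.5 CPM in other stromal nuclei, and at the glycolytic gene Pgk1 (-0.135 and 2.17). Over all genes higher in RNA, 15.1% were at least 2-fold more accessible and 0 less accessible. The share more accessible was 0.649% for genes within 2-fold in RNA and 0.285% for genes lower in RNA. The median log2 ratio was 0.32 for genes higher in RNA, against -0.06 for genes within 2-fold in RNA and -0.26 for genes lower in RNA.

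**Figure D2:**
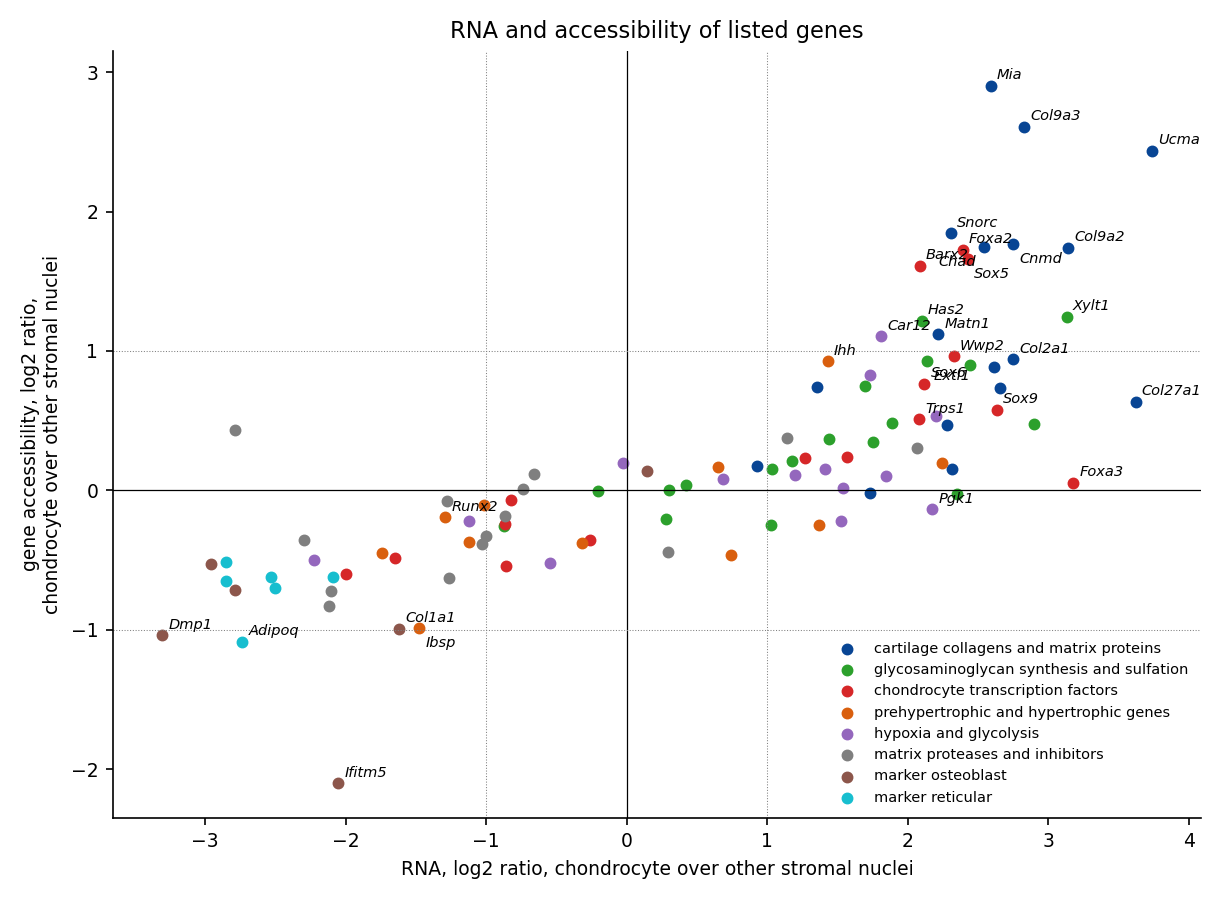
Log2 ratio of chondrocyte over other stromal nuclei in RNA (x axis) and in gene accessibility (y axis), with 1 point per gene of 8 lists. Dotted lines mark 2-fold. Mia, Col9a3 and Ucma lie high on both axes, Foxa3 and Pgk1 are high in RNA with an accessibility ratio near 0, and most osteoblast and reticular markers lie low on both.

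Col10a1 was limited by the rule in RNA, at 710.5 CPM in chondrocyte nuclei and 1641 CPM in other stromal nuclei (log2 ratio -1.21, or 1.10 once hypertrophic nuclei were left out), yet its locus was open. It had 169 ATAC counts, 13.8 CPM (log2 ratio 1.97 over other stromal nuclei), and osteoblast nuclei had 0.336 and reticular nuclei 0.118 CPM. From the lowest to the highest range of the 5-gene share it stood at 4.62, 18.1 and 21.1 CPM, and the interval of the highest range (16.7 to 26.3) overlapped that of hypertrophic nuclei (20.2, 17.04 to 23.8). Only 2 peaks cover it. Mmp13 behaved otherwise, with 13.0, 11.9 and 6.07 CPM over the ranges and 21.7 in hypertrophic nuclei. Pthlh, which encodes parathyroid hormone-related protein, had 0 UMIs in chondrocyte nuclei, which allows up to 3, and 9 in other stromal nuclei. Its locus was more accessible in chondrocyte nuclei (203 counts, 16.6 CPM) than in other stromal nuclei (180 counts, 4.001 CPM). Runx2 differed little in chromatin, at 370 CPM in chondrocyte nuclei, 357 in hypertrophic nuclei and 448 in osteoblast nuclei.

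**Figure D3:**
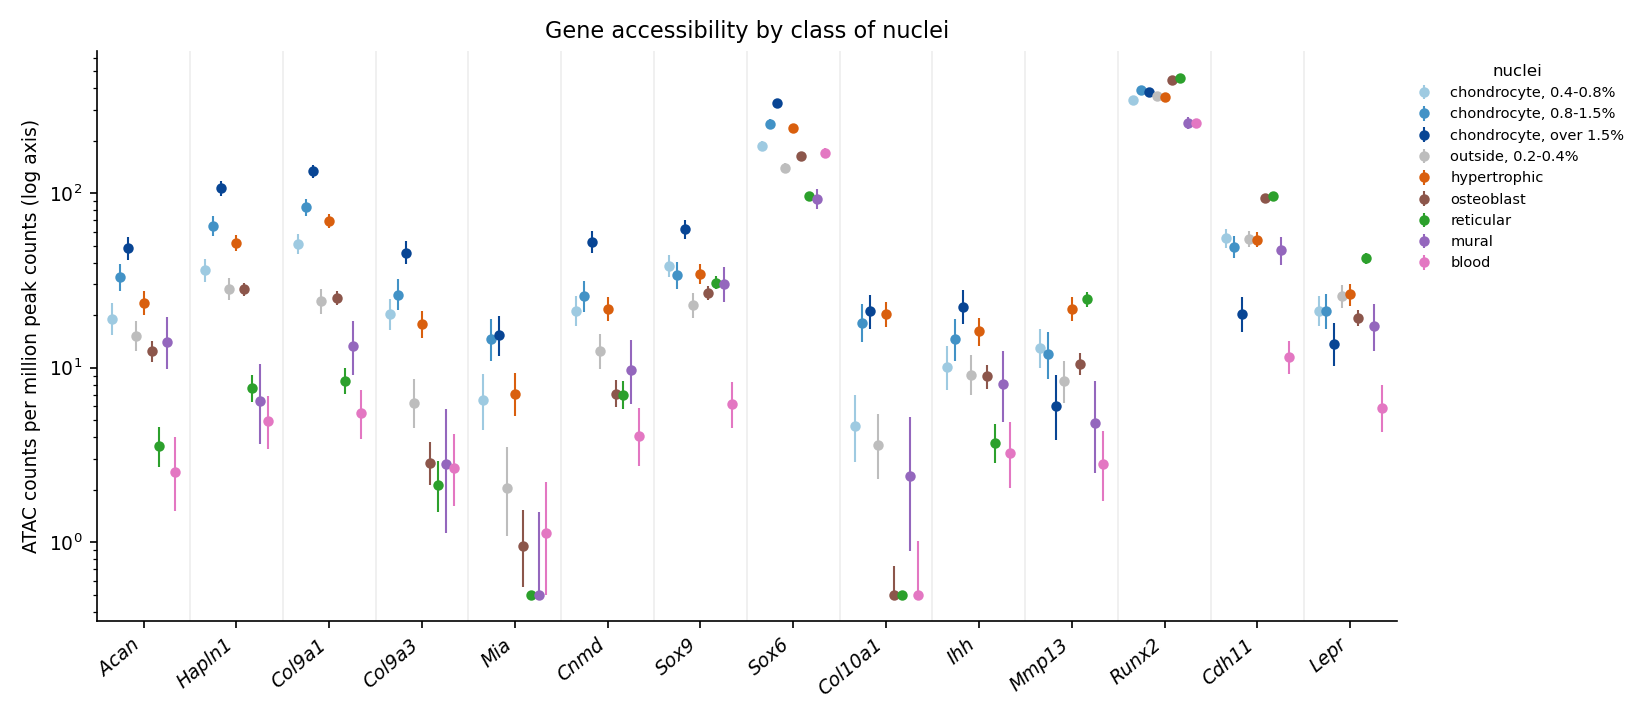
Accessibility of 14 genes in CPM of peak counts on a log axis, for chondrocyte nuclei in 3 ranges of the 5-gene share (blue), nuclei just outside the rule (grey) and nuclei of other gates. Bars are 95% Poisson intervals, and values under 0.5 are drawn at 0.5. Acan stood at 19.1, 33.04 and 48.3 CPM over the ranges, and Col10a1 at 21.1 in the highest range against 20.2 in hypertrophic nuclei.

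Of 193266 peaks with at least 20 counts, 39304 (20.3%) were at least 2-fold higher and 35683 (18.5%) lower in chondrocyte nuclei. Higher peaks were dense around some cartilage genes. Within 100 kb of Acan 32 of 44 peaks were higher (72.7%), of Sox5 54 of 79, of Hapln1 13 of 21 and of Sox9 15 of 29. Around Col2a1 10 of 49 were higher (20.4%), near the share over all peaks. Around Lepr 15 of 33 were lower and 3 higher. The 5 peaks of highest ratio with at least 100 counts in chondrocyte nuclei had 5 to 12 counts in hypertrophic nuclei and at most 3 in each of the osteoblast, reticular, mural and blood classes, which the choice by ratio sets in part. The 12 tenocyte or synovial nuclei had 0 counts, which allows up to 7.45 CPM (95% Poisson bound). The central 200 bases of the first 3 are shown (mm10, 5′ to 3′ on the plus strand, from RefSeq GRCm38.p6). They had the highest ratios among peaks chosen this way. The peak near Matn3 is shown because, of the 5 peaks named near cartilage genes, it alone held a searched site. Capitals mark the letters searched on both strands, which were ACAAAG or ACAATG for SOX factors, ACAA and TTGT with 7 or 8 bases between them for SOX pairs, TGTGGT for RUNX factors and TGACTCA for AP-1.
chr19:54180931-54181130: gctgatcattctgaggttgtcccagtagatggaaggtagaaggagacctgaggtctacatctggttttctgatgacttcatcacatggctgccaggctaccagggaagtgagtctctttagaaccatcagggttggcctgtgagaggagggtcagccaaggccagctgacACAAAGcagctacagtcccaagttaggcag
chr4:153410483-153410682: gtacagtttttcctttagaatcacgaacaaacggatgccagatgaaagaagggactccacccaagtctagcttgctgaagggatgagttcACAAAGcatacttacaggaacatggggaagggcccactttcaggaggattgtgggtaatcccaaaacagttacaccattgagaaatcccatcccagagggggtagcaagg
chr10:24440736-24440935: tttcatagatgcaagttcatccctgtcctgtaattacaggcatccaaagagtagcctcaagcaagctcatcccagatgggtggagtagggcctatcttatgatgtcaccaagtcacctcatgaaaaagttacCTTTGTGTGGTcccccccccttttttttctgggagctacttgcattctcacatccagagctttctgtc
chr12:9047475-9047674: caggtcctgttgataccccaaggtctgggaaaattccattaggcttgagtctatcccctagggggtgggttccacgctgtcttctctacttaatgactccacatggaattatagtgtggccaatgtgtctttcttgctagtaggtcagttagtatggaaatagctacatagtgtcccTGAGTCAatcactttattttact

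The peak on chromosome 19 is intergenic and held 204 counts in 63 chondrocyte nuclei, 12 in hypertrophic nuclei and 0 in osteoblast, reticular, mural and blood nuclei. Its window has 1 SOX site. The peak on chromosome 4, in an intron of Ajap1, held 110 counts in chondrocyte nuclei and 9 in other stromal nuclei, of which 5 were in hypertrophic nuclei, and also has 1 SOX site. The intergenic peak on chromosome 10 held 157 counts, against 17 in other stromal nuclei, and has 1 SOX and 1 RUNX site, which overlap. The peak 17578 bases downstream of the start of Ttc32, within 100 kb of Matn3, held 163 counts in chondrocyte nuclei and 26 in other stromal nuclei, and has 1 AP-1 site. The other peaks of highest ratio within 100 kb of a cartilage gene held none of these letters in their windows. The peak 9955 bases upstream of Col2a1 (chr15:98014219-98015081) had 139 counts in chondrocyte nuclei and 47 in other stromal nuclei, 39 of them in hypertrophic nuclei. The peak named for Sox9, in an intron of BC006965 (chr11:112697858-112698753), had 181 counts in chondrocyte nuclei and 29 in other stromal nuclei. The peak 6709 bases upstream of Comp (chr8:70366385-70367313) had 190 and 55 counts, and the intergenic peak near Acan (chr7:79170766-79171540) 51 and 5.

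**Figure D4:**
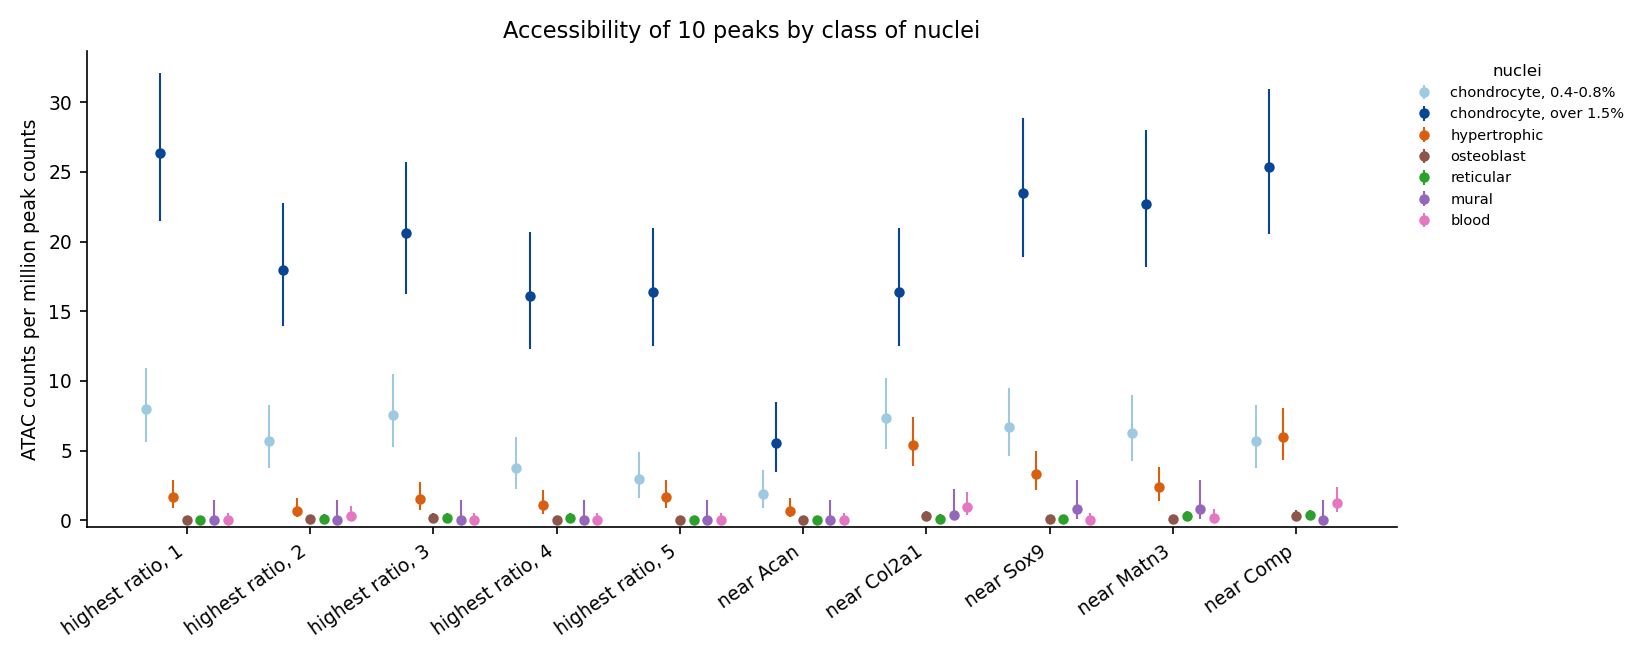
ATAC level in CPM in 10 peaks, 5 of the highest ratio outside chr18 and 1 near each of 5 cartilage genes. Points are chondrocyte nuclei in the lowest and highest range of the 5-gene share (blue) and nuclei of other gates. Bars are 95% Poisson intervals. The highest range reached 26.4 CPM at the first peak, against 7.98 in the lowest range and 1.67 in hypertrophic nuclei, and the remaining classes lie near 0.

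Site letters were counted in the central 300 bases of 151662 peaks with at least 50 counts. The 7-letter AP-1 site was in 32.5% of 28123 peaks higher in chondrocyte nuclei and 7.26% of 28088 lower peaks, against 16.0% of all. Single SOX sites were in 29.5% of higher peaks, against 41.8% of lower peaks and 33.3% of all, and the 1000 peaks of highest ratio held 32.9%. The SOX pair, with 7 or 8 bases between its parts, was in 3.80% of those 1000 peaks, 1.92% of higher peaks and 1.45% of all. RUNX sites were in 33.8% of higher, 38.7% of lower and 32.6% of all peaks, and TEAD sites (GGAATG) in 19.7, 21.5 and 18.9%. Median GC content was 49.3% in higher and 45.3% in lower peaks, and its part in these shares was not tested. Higher peaks lay within 1 kb of a gene start in 5.82% of cases, against 12.3% of all peaks.

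The AP-1 contrast was recomputed under groupings chosen after it was seen. Against other stromal nuclei, the site was in 30.5% of higher and 8.76% of lower peaks for the lowest range of the 5-gene share, and in 29.2% and 9.58% for the highest range. For nuclei over 20% mitochondrial UMIs the shares were 31.8% and 7.83%. The gap was narrower for nuclei of at most 10%, at 26.8% and 11.3%, and for the 21 nuclei that also passed the osteoblast gate, at 24.4% and 11.6%. These groups held only 1139258 and 1366822 ATAC counts, against 8160384 above 20% and 4762379 in the lowest range. The other stromal nuclei were not limited by mitochondrial share. The part of depth in the width of the gap was not tested. Between chondrocyte and hypertrophic nuclei it was 25.4% of higher and 22.7% of lower peaks. For hypertrophic against reticular nuclei, the site was in 30.7% of higher and 8.18% of lower peaks, while between osteoblast and reticular nuclei the shares were 13.7% and 13.2%. Between chondrocyte and hypertrophic nuclei the RUNX site was in 29.8% of peaks higher in chondrocyte nuclei and 50.3% of peaks lower in them, against 31.4% of all peaks of that comparison. Of 12 genes of AP-1 and related factors, looked up in the RNA after these shares were seen, Fosl1 and Batf3 were higher and Maf was lower by the 2-fold rule. Fos had 449.9 CPM in chondrocyte nuclei and 490 CPM in other stromal nuclei, and Jun 285 and 359.5 CPM. Fosl1 had 56 UMIs against 35 (log2 ratio 2.33), and Batf3 35 against 13 (3.05). In the chondrocyte nuclei of at most 10% mitochondrial UMIs, Fosl1 stood at 12.2 CPM and Batf3 at 6.11 CPM. Over all chondrocyte nuclei they had 42.9 and 26.8 CPM, and in other stromal nuclei 8.51 and 3.16 CPM. The values at most 10% rest on very few UMIs, since those 28 nuclei held 163573 UMIs in all. The difference was not tested.

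**Figure D5:**
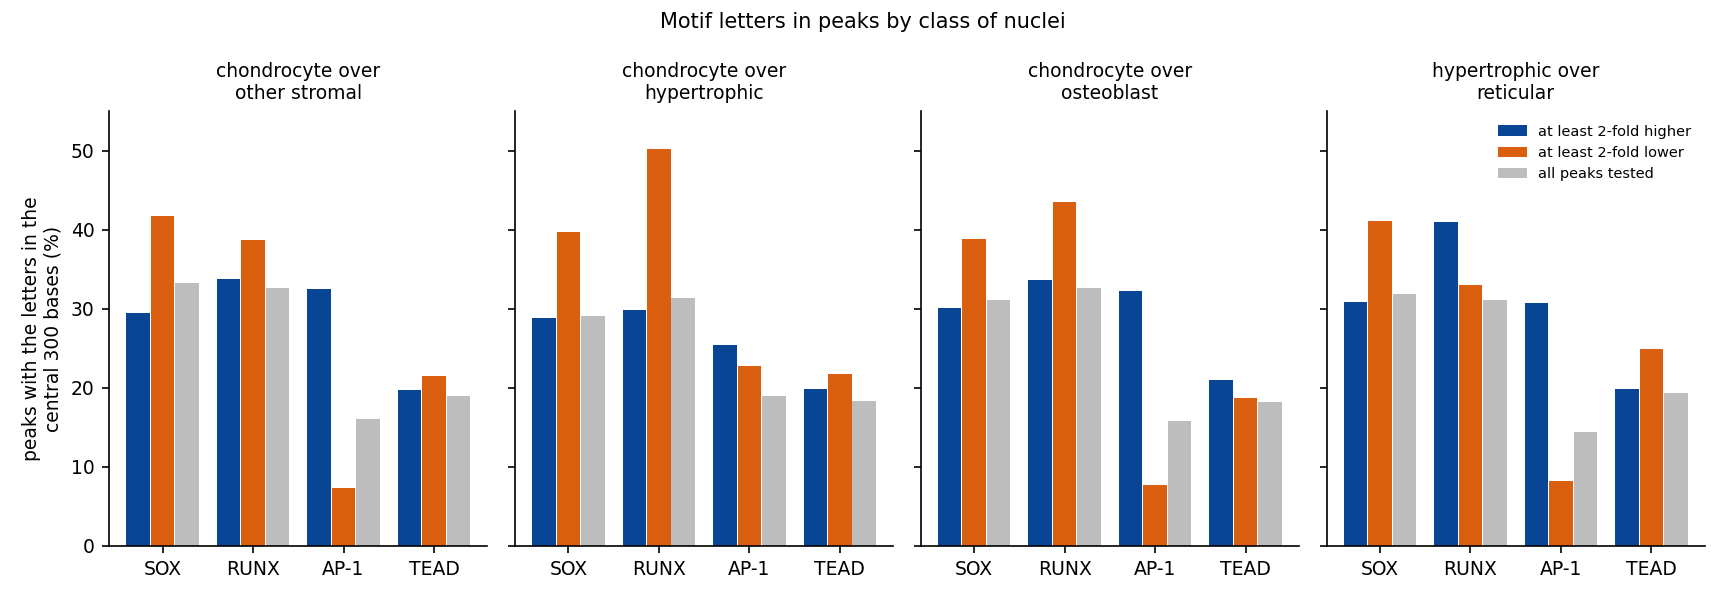
Share of peaks whose central 300 bases hold the letters of each site, in percent, for peaks at least 2-fold higher (blue), at least 2-fold lower (orange) and all peaks tested (grey) in 4 comparisons of classes. The AP-1 bars differ most between higher and lower peaks in the chondrocyte and hypertrophic comparisons with other stromal classes (32.5% and 7.26% in the first panel), and RUNX reaches 50.3% in peaks lower in chondrocyte than in hypertrophic nuclei.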

How the data were processed

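The values were counts as deposited by the authors: UMIs per gene and ATAC counts per peak for every barcode, for which the submitters' processing notes name Cell Ranger ARC 2.0.0 and the build mm10. Barcodes with at least 500 non-mitochondrial UMIs and 1000 peak counts were kept as nuclei (4481), with no limit on mitochondrial UMIs. RNA held 35460453 UMIs and ATAC 191398837 counts over 728634 barcodes. Summed counts were scaled to CPM, with exact Poisson intervals. Log2 ratios had 0.5 counts added to each side, and a 2-fold ratio with at least 20 counts was counted. With 1 library no test was run. Free RNA was read from 62603 barcodes of 100 to 400 UMIs with under 500 peak counts. Doublets were kept, and an alternative removed the highest Scanpy Scrublet scores. Motif letters were read from RefSeq GRCm38.p6 (pysam 0.24.0). Python 3.11.15, numpy 2.4.6, scipy 1.17.1, pandas 2.3.3 and scanpy 1.11.5 were used, and the code was tested on simulated data.

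The members and the gene lists were chosen with earlier results of these data known. Named were the genes of the rule, per list up to 4 genes of largest absolute ratio with at least 20 UMIs, 15 unlisted genes that had the highest ratios and at least 50 UMIs in chondrocyte nuclei, 6 genes of the study's own interest, the 5 peaks of highest ratio with at least 100 counts, and the peak of highest ratio within 100 kb of Acan, Col2a1, Sox9, Matn3 and Comp with at least 50. The ranking that gave the 5 peaks left out chr18. Other listed genes in the text were picked after their values were seen. A gene that this rule names is not reported here.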

Additional observations from a re-analysis of the deposited data

How the results depend on the processing

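The number of chondrocyte nuclei depended on the limits. It was 28 with at most 10% and 79 with at most 20% mitochondrial UMIs, 115 with a 5-gene share of at least 0.8% and 382 with at least 0.2%, and 194 to 228 under the other settings. Genes at least 2-fold higher numbered 781 to 1513 and lower 1219 to 2508. With at most 10% mitochondrial UMIs, 444 of the 1055 higher genes were among the 1107. Higher peaks were 20492 with at most 10% mitochondrial UMIs, and 5966 higher and 9707 lower peaks had at least 200 counts, where fewer peaks are tested. Of 990 values of named genes, 667 stayed within the interval of the value reported, and 3 of those reported as at least 2-fold changed sign. Adamts4 had a log2 ratio of 0.25 with at most 10% mitochondrial UMIs (-2.10 reported), Mcm6 -0.174 against all other nuclei (1.38), and Col10a1 1.101 against other stromal nuclei without the hypertrophic ones (-1.21). Of genes reported within 2-fold, Gas1 (-0.62) reached 1.036 and Kif11 (0.64) reached -1.897, both with at most 10% mitochondrial UMIs. The causes were not tested. Removing the 5 deepest nuclei, leaving hypertrophic nuclei out and the limit of 200 counts were chosen after seeing the data. The deepest 5 nuclei held 18.5% of the UMIs. No paired analysis was possible because there was 1 library.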
